A study of Mus musculus and Homo sapiens with 12 samples.

Results

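Mitochondrial ribosomal proteins are the nuclear-encoded proteins of the ribosome that works inside mitochondria. They were taken as the rows of the 2 expression tables whose symbol starts with MRPL or MRPS followed by a digit and whose mean level in that table was at least 1 FPKM (fragments per kilobase of gene, scaled to sequencing depth). Of 72 such symbols in the human table, 53 passed, among 6679 human genes tested, and of 73 in the mouse table all 73 passed, among 9943 mouse genes tested. The choice used names and mean levels, not any comparison between groups. Of these symbols, 68 were listed in both tables, 4 in the human table alone and 5 in the mouse table alone.

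The study had 12 RNA-sequencing libraries, 2 per group, all of T-ALL, an acute leukaemia of immature T cells. The human libraries came from KOPTK1, an established T-ALL line, after 72 h with the gamma-secretase inhibitor (gSI) Compound E, which stops the cleavage that releases active NOTCH1, or with DMSO, its vehicle. The mouse libraries came from C57BL/6 mice that carried secondary transplants of NOTCH-delta E tumours and spent 3 weeks on a diet labelled as holding 0, 0.4, 0.8 or 8 g/kg valine, the last being the control. All mouse groups therefore share the NOTCH1-driven leukaemia, which was sorted from the spleen by its GFP marker. The protocol text instead gives the 0.4 and 0.8 doses per litre of water drunk by mice whose food lacked valine, and the diets were therefore ranked. Replicates are numbered 1 and 2 in KOPTK1 and named TALL2 and TALL3 in mouse. The labels do not say whether these were separate cultures or animals, nor whether TALL2 and TALL3 are separate tumours, so the p-values measure the spread between libraries only.

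The mitochondrial ribosome reads only the few messages of the mitochondrial genome, all of which encode core subunits of oxidative phosphorylation. Its RNAs are made in the mitochondrion, whereas every protein of its large (MRPL) and small (MRPS) subunits is made in the cytosol and imported. Some members keep the number of a bacterial ribosomal protein, and others carry higher numbers given to mitochondrial proteins. The numbering classes used below go by number alone, not by ancestry. Valine, an essential branched-chain amino acid, must come from the diet. Symbols are older than the structures in places: MRPS30 and MRPS18A sit in the large subunit, and MRPS36 is now known as a component of the alpha-ketoglutarate dehydrogenase complex.

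Reads recovered from the spacing of the FPKM values came to 28566068 and 42245074 with gSI and 22939277 and 25302129 with DMSO, and to 14222895 to 37687253 per mouse library. A member held 56 to 3836 reads per human library, with a median of 764, and 44 to 4382 per mouse library, with a median of 766. The recovered gene length had a median of 8624 bp over the 53 human members and 1722 bp over the 73 mouse members. The 19 human symbols under the minimum had a median of 31663 bp, so levels of different human genes are not compared with each other. Over all listed genes the median was 29949 bp in human and 3180 bp in mouse. The human minimum thus depended on length as well as reads. MRPS27, under it, had 2197 to 3498 reads per library, while MRPL41, above it, had 56 to 147. The 19 were left out of the alternative without a filter too. Just inside the minimum stood MRPS18C with a mean of 1.05 FPKM and MRPS25 with 1.07 FPKM, and just outside it MRPS18A with 0.994 FPKM and MRPS27 with 0.950 FPKM. HES1, a direct NOTCH1 target, had 0.0253 and 0.0431 FPKM with gSI against 6.72 and 6.18 FPKM with DMSO. All 12 T-lineage markers were listed in both species. Their summed level was 215 and 228 FPKM with gSI against 381 and 364 FPKM with DMSO, and 3398 to 4616 FPKM over the mouse libraries.

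The first comparison asked what NOTCH1 inhibition does to these transcripts in KOPTK1. Of the 53 mitochondrial ribosomal protein genes tested, 22 fell with gSI, 3 rose and the others did not pass the test. The median change over all 53 members, called or not, was -0.12 on the log2(FPKM + 1) scale. The 22 falls ran from -0.15 in MRPL32 to -0.73 in MRPS15, which changed most. Calls were made with limma at an adjusted p under 0.05, Benjamini-Hochberg over all 6679 genes. Over all tested genes 53.1% were called, 30.3% lower and 22.8% higher, and their median change was -0.03. At the minimum of 1 FPKM, the members' share called lower was therefore above the background and their share called higher below it. No test of that difference was made. MRPL12 and MRPL54, 2 of the 22 that fell, averaged under 1 FPKM with gSI and passed the minimum only through the DMSO libraries, so the filter favoured a fall in them. Of the 53 members, 43 had a fold change below 0, which is 81.1%, against 54.9% of all tested genes. Both gSI libraries lay below both DMSO libraries for 34 members, where 42.4% of all tested genes did so, and above them for 7 members, where 33.9% did so. Members that did not pass ran from MRPS34 at -0.20 to MRPL51 at 0.16 on the log2 scale.

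**Figure D1:**
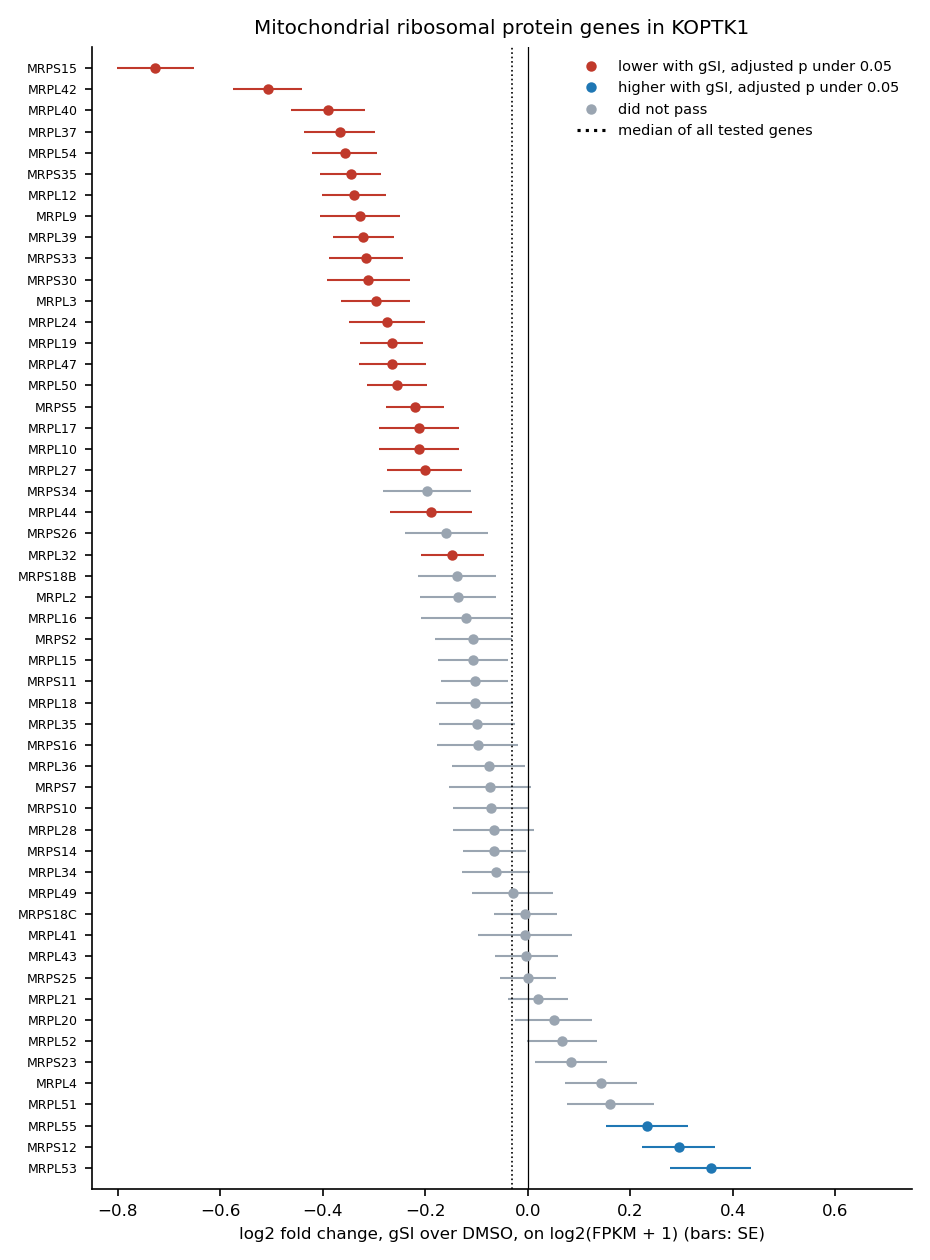
Log2 fold change of gSI over DMSO for the 53 mitochondrial ribosomal protein genes tested in KOPTK1, on log2(FPKM + 1), as points with the standard error as bars (2 libraries per group). The 22 genes that fell lie left, from MRPS15 at -0.73, the 3 that rose lie right, up to MRPL53 at 0.36, and the dotted line marks the median of all tested genes at -0.03.

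Among small-subunit proteins, MRPS15, the counterpart of the bacterial ribosomal protein S15 that binds small-subunit RNA, had 2.76 and 2.97 FPKM with gSI against 5.55 and 5.24 FPKM with DMSO. Both gSI libraries were low and close together, and the groups did not overlap. The mean with gSI was 0.531 of that with DMSO, and the log2 fold change was -0.73 ± 0.08 (SE, n = 2 each; adjusted p = 7.62e-09, limma). Because 1 was added to every FPKM before the log, such fold changes understate the ratio of low genes. MRPS35, a protein that only mitochondrial ribosomes have, had 1.07 and 0.956 FPKM with gSI against 1.62 and 1.5 FPKM with DMSO, a log2 fold change of -0.35 ± 0.06 (SE; adjusted p = 2.04e-05, limma). MRPS5 and MRPS33 were the other small-subunit members that fell, with MRPS30 counted in the large subunit.

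In the large subunit, 18 of 36 members fell and 2 rose. MRPL42, a protein without a bacterial counterpart, had 1.57 and 1.46 FPKM with gSI against 2.64 and 2.5 FPKM with DMSO (log2 fold change -0.51 ± 0.07, SE; adjusted p = 5.34e-07, limma). MRPL40 had 2.15 and 1.84 FPKM with gSI against 2.85 and 2.99 FPKM with DMSO, and MRPL37 had 2.01 and 1.98 FPKM with gSI against 2.95 and 2.78 FPKM with DMSO. Neither gene's groups overlapped, and the changes were -0.39 for MRPL40 and -0.37 for MRPL37 on the log2 scale. MRPL54, with 0.846 and 1.04 FPKM with gSI against 1.35 and 1.63 FPKM with DMSO, fell by 0.36, and its mean of 0.944 FPKM with gSI was under the minimum. MRPL12, the stalk protein that recruits translation factors and also binds the mitochondrial RNA polymerase, had 0.886 and 0.835 FPKM with gSI against 1.54 and 1.18 FPKM with DMSO. It fell by 0.34 on the log2 scale (adjusted p = 5.27e-05, limma), and its mean of 0.861 FPKM with gSI was likewise under the minimum. MRPS30, large-subunit by structure, had 5.65 and 5.17 FPKM with gSI against 7.48 and 6.44 FPKM with DMSO and fell by 0.31 (adjusted p = 0.00207, limma). Its adjusted p ranged from 0.000207 to 0.092 over the alternatives, the highest being without gSI replicate 2.

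**Figure D2:**
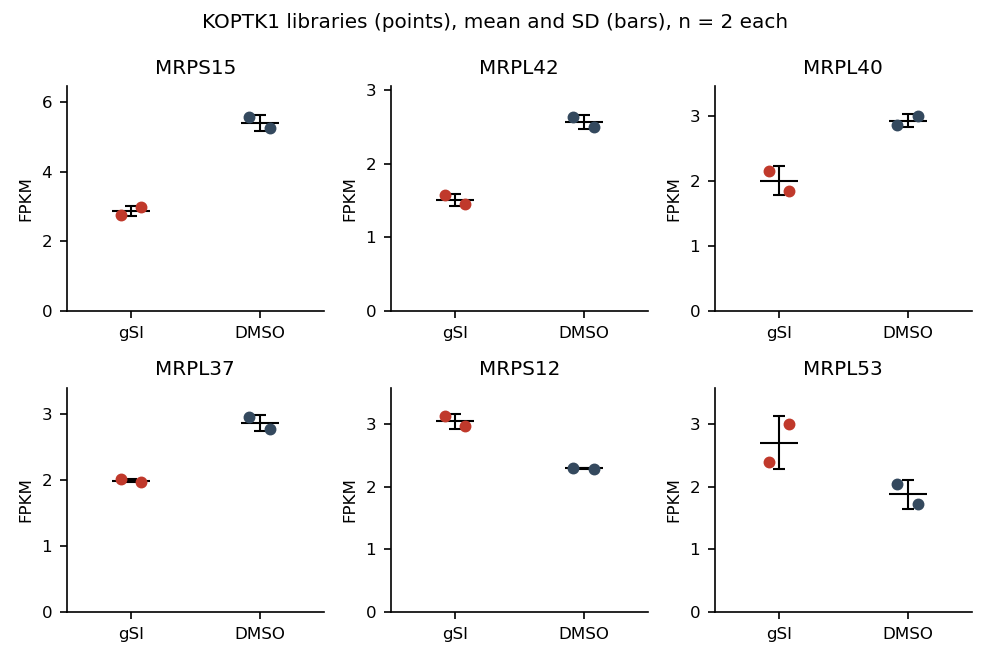
FPKM of 6 members in each KOPTK1 library (points), with the mean and SD as bars, gSI left of DMSO (n = 2 each). The gSI points lie below the DMSO points for MRPS15, MRPL42, MRPL40 and MRPL37 and above them for MRPS12 and MRPL53.

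The members that rose were MRPL53, MRPS12 and MRPL55. MRPL53, a mitochondria-specific large-subunit protein, had 2.40 and 2.99 FPKM with gSI against 2.04 and 1.72 FPKM with DMSO (log2 fold change 0.36 ± 0.08, SE; adjusted p = 0.000402, limma). MRPS12, the counterpart of the bacterial decoding-centre protein S12, had 3.11 and 2.95 FPKM with gSI against 2.29 and 2.28 FPKM with DMSO, a change of 0.29. MRPL55 had 4.0 and 4.81 FPKM with gSI against 3.42 and 3.75 FPKM with DMSO, a change of 0.23 (adjusted p = 0.0167, limma). The groups did not overlap in any of these genes, but each call was lost when a single library was left out. Without gSI replicate 2 the adjusted p was 0.0761 for MRPL53 and 0.449 for MRPL55, and without gSI replicate 1 it was 0.0538 for MRPS12 (limma). Each is the highest over the alternatives, where the lowest were 2.51e-06, 0.00577 and 0.000192 for the same genes. MRPL55 lost its call in 4 alternatives, and the others in 1.

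By subunit, the median change was -0.14 over the 36 large-subunit members and -0.10 over the 17 small-subunit members, of which 4 fell and 1 rose. By numbering, 11 of 31 members with a bacterial counterpart's number fell and 1 rose, with a median of -0.11. Of the 22 with a number given to mitochondrial proteins, 11 fell and 2 rose, with a median of -0.19. Over all tested genes 30.3% were called lower and 22.8% higher. The share called lower was above that of all genes in the large subunit and among mitochondrial numbers. It was below that of all genes in the small subunit and little above it among bacterial numbers. These differences, between classes and from all genes, were not tested. Of the fixed paralogue set MRPS18A, B and C, which share descent from bacterial S18, MRPS18B changed by -0.14 (adjusted p = 0.126, limma) and MRPS18C by -0.005 (adjusted p = 0.956, limma), and MRPS18A was under the minimum. MRPS36 had 0.621 and 0.604 FPKM with gSI against 0.763 and 0.640 FPKM with DMSO and was not tested either.

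The direction of the median was the same within both replicate numbers: -0.15 in replicate 1, with 44 of 53 members lower, and -0.08 in replicate 2, with 38 lower. Over all 6679 genes the median was -0.08 in replicate 1, with 4108 lower, and 0.02 in replicate 2, with 3203 lower. Without gSI replicate 2 the member median was -0.163, beside -0.04 for all genes. With 1 library left out at a time, it ran from -0.163 to -0.109, beside -0.0669 to 0.0058 for all genes. Members and all genes alike had fewer calls without either gSI library than with every library kept. With a minimum mean of 5 FPKM, 13 members were tested and 4 were called, all lower, beside 724 of 2051 genes called lower. Past the threshold under every setting that tested them were 11 members, all lower with gSI: MRPL3, MRPL9, MRPL12, MRPL37, MRPL39, MRPL40, MRPL42, MRPL54, MRPS15, MRPS33 and MRPS35. Among them, MRPL12 and MRPL54 passed the minimum only through their DMSO level. The matching count over all tested genes was not made, so the 11 do not set the members apart from other genes. In bulk libraries of this cell line, a change in all cells and a change in some of them cannot be told apart. The T-lineage marker sum given above was also lower with gSI. Its part in the result was not tested.

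Other genes of the pathway were read from fixed lists. Of the 7 mitochondrial ribosome subunits with other symbols, 4 fell and none rose, with a median of -0.18. DAP3, a GTP-binding small-subunit protein, changed by -0.35 (adjusted p = 0.000168, limma) and MRP63 by -0.33. Of 11 mitochondrial translation factors tested, 4 fell and none rose (median -0.11), among them LRPPRC, which stabilises mitochondrial messages, at -0.24 and the initiation factor MTIF3 at -0.24. The 16 factors that assemble the mitochondrial ribosome went both ways, 2 lower and 4 higher (median -0.03). NOA1 changed by -0.34 and RPUSD4 by -0.32, while MPV17L2 changed by 0.58 and NGRN by 0.34, and all 4 passed the test. Of 23 nuclear subunits of complex I, the respiratory complex whose core the mitochondrial ribosome makes, 4 fell and none rose (median -0.04), led by NDUFB5 at -0.44. Over all tested genes 30.3% were called lower, with a median of -0.03. Complex I subunits and assembly factors thus had smaller shares called lower than all genes.

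Cytosolic ribosomal proteins were fitted beside them. Of 72 tested, 56 fell and 1, RPS26, rose, with a median of -0.40, and RPL12 (-0.87) and RPL3 (-0.80) changed most. Many of these genes have near-identical pseudogene copies, and how the authors counted reads that match both is not given in the sources used here, so single values are uncertain. MYC, a NOTCH1 target known to drive ribosome genes, had 4.75 and 4.75 FPKM with gSI against 17.2 and 16.1 FPKM with DMSO. None of the 15 mitochondrially encoded transcripts was listed in either table, so the output of the mitochondrial genome was not analysed here.

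The second comparison asked how the same genes behaved in mouse T-ALL when dietary valine was withdrawn. No member and no other gene passed the adjusted threshold in any diet comparison (0 of 9943, limma), and voom on the recovered reads also called 0. At an unadjusted p under 0.05, the 0 g/kg diet had 8 members lower and 1 higher than the 8 g/kg diet, where 5.52% of all tested genes were lower and 4.79% higher. The 0.4 g/kg diet had 5 members lower and 1 higher (7.57% and 3.08% of all tested genes), and the 0.8 g/kg diet had 4 lower and 1 higher (3.21% and 1.15%). With 73 members, those background shares correspond to similar counts at 0.4 g/kg.

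Median changes of the members against the 8 g/kg diet were -0.09 at 0 g/kg, -0.06 at 0.4 g/kg and -0.07 at 0.8 g/kg, beside -0.01, -0.05 and -0.04 for all tested genes at the same diets. At 0.4 g/kg the median of the members was close to that of all genes, and it was 6.83e-05 under median-of-ratios scaling. The slope over the diet series had a median of -0.026 per step of falling valine, beside -0.006 for all tested genes, with 11 members lower and 1 higher at an unadjusted p under 0.05 (6.37% and 5.9% of all tested genes). These comparisons share the 8 g/kg libraries, so their agreement is not independent.

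**Figure D3:**
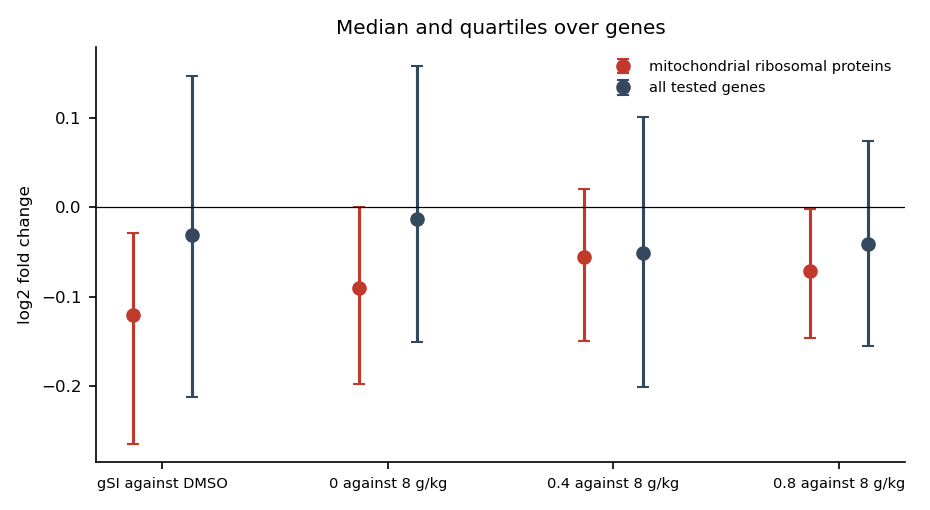
Median log2 fold change (points) with the lower and upper quartile (bars) over mitochondrial ribosomal proteins and over all tested genes, for gSI against DMSO (53 and 6679 genes) and for each restricted diet against 8 g/kg valine (73 and 9943 genes). The member median lies below that of all genes for gSI (-0.12 and -0.03) and for 0 g/kg (-0.09 and -0.01), and the quartiles overlap in every comparison.

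The diet medians differed between TALL2 and TALL3. Within TALL2, at 0, 0.4 and 0.8 g/kg in turn, the member median against 8 g/kg was -0.04, -0.10 and -0.16. Within TALL3 it was -0.14, -0.03 and -0.003. Over all 9943 genes the same medians were -0.02, -0.07 and -0.05 within TALL2 and -0.008, -0.04 and -0.03 within TALL3. The lowest libraries were TALL2 at 0.8 g/kg, with 61 of 73 members below the TALL2 library at 8 g/kg (5896 of 9943 genes), and TALL3 at 0 g/kg, with 55 below its own (5084 genes). With only the TALL3 library at 0 g/kg left out, the member median at 0 g/kg was -0.04, beside -0.02 for all genes. With only the TALL2 library at 0.8 g/kg left out, the member median at 0.8 g/kg was 0.02, beside -0.03 for all genes.

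Mrpl27, the counterpart of bacterial L27, which lies near the site of peptide bond formation, was the only member that followed the diet series in every library. The gene (ENSMUSG00000024414) lies on chromosome 11 of GRCm38, from 94653767 to 94660089. It had 11.1 and 9.88 FPKM at 0 g/kg, 12.4 and 11.9 FPKM at 0.4 g/kg, 13.5 and 13.2 FPKM at 0.8 g/kg and 17.1 and 16.5 FPKM at 8 g/kg (TALL2 and TALL3 at each diet). Every library lay below those of the diet with more valine at each step, a pattern held by 1 of 73 members and 0.191% of all tested genes. The opposite order, every library above those of the diet with more valine, was held by 0 members and 0.131% of all tested genes. Its mean at 0 g/kg was 0.624 of that at 8 g/kg, a log2 difference of -0.63 ± 0.09 (SE, n = 2 each) that did not pass the test (unadjusted p = 0.000446, adjusted p = 0.158, limma). The slope was -0.20 ± 0.03 per step (adjusted p = 0.182, limma).

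The other low members of smallest p at 0 g/kg were Mrps9, Mrps18c, Mrpl35 and Mrps35. Mrps9, the counterpart of bacterial S9, had 26.0 and 25.1 FPKM at 0 g/kg, 25 and 25.5 FPKM at 0.4 g/kg, 25.7 and 27.0 FPKM at 0.8 g/kg and 31.9 and 32.3 FPKM at 8 g/kg. The restricted libraries lay together below both control libraries, with no further step among them (0 against 8 g/kg -0.32 ± 0.07, SE; adjusted p = 0.362, limma). Mrps18c had 14.7 and 11.9 FPKM at 0 g/kg, 14.2 and 13.8 FPKM at 0.4 g/kg, 16.1 and 14.8 FPKM at 0.8 g/kg and 17.9 and 19.9 FPKM at 8 g/kg (-0.48 ± 0.12, SE; adjusted p = 0.371, limma). For its paralogues the log2 difference at 0 g/kg was 0.001 ± 0.12 for Mrps18a and 0.03 ± 0.10 for Mrps18b (SE), with unadjusted p of 0.993 and 0.742 (limma); the difference between paralogues was not tested. Mrpl35 had 8.97 and 7.14 FPKM at 0 g/kg against 11.5 and 10.5 FPKM at 8 g/kg, and Mrps35 had 7.72 and 6.74 FPKM at 0 g/kg against 9.71 and 8.79 FPKM at 8 g/kg.

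Mrps6 and Mrpl24 were higher on the restricted diets, without passing the test. Mrps6, the counterpart of bacterial S6, had 21.5 and 20.6 FPKM at 0 g/kg, 17.2 and 16.7 FPKM at 0.4 g/kg, 16.6 and 16.7 FPKM at 0.8 g/kg and 14.7 and 15.1 FPKM at 8 g/kg. The 0 g/kg libraries stood above all others, with a log2 difference from 8 g/kg of 0.47 ± 0.08 (SE; unadjusted p = 0.000866, adjusted p = 0.202, limma). Mrps6 shares 159 bp of exon with Slc5a3, a myo-inositol transporter gene on the same strand, and 305 bp with another gene model. Slc5a3 had 0.854 and 1.41 FPKM at 0 g/kg against 0.501 and 0.597 FPKM at 8 g/kg, and how reads in shared exons were counted is not given in the sources used here. Mrpl24, the counterpart of a bacterial protein that starts large-subunit assembly, had 79.8 and 77.2 FPKM at 0 g/kg, 82.7 and 86.3 FPKM at 0.4 g/kg, 84.1 and 80.8 FPKM at 0.8 g/kg and 71.8 and 70.6 FPKM at 8 g/kg. All 6 restricted libraries were above both controls, without order among the restricted diets.

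**Figure D4:**
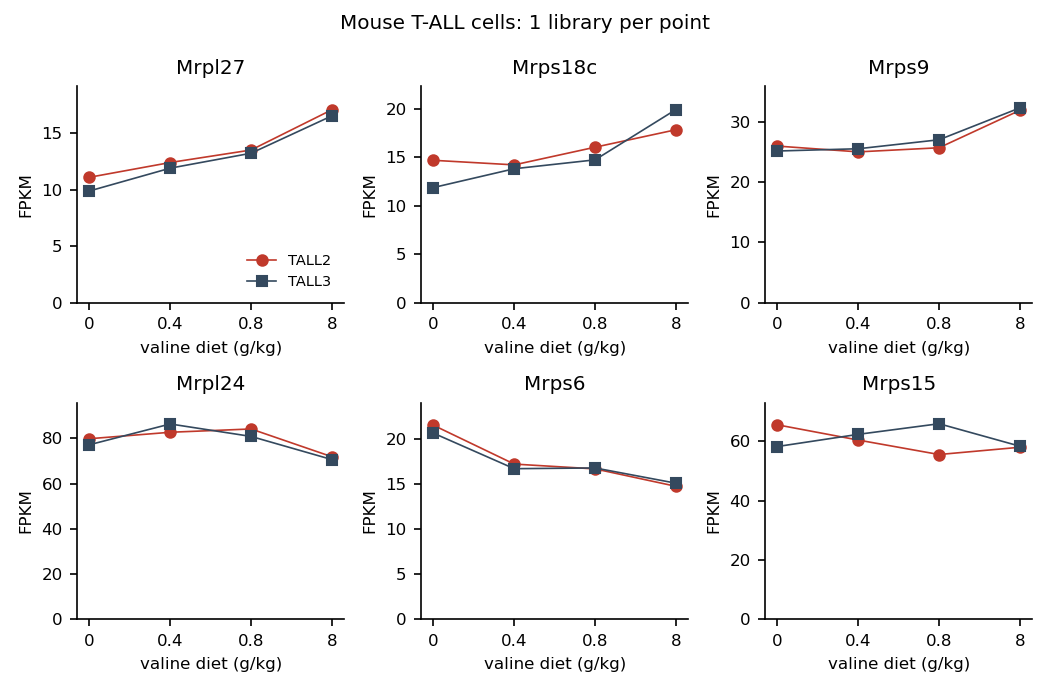
FPKM of 6 mouse members by diet, from 0 to 8 g/kg valine along the axis (evenly spaced, not to scale), with 1 point per library and a line for each of TALL2 and TALL3. Mrpl27 climbs with valine at each step to 17.1 and 16.5 FPKM, Mrps6 is highest at 0 g/kg with 21.5 and 20.6 FPKM, and the TALL2 and TALL3 lines of Mrps15 cross.

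Promoters of mouse members are shown because genes of mitochondrial ribosomal proteins are known targets of NRF1 and ETS-family factors. The sequences are from RefSeq (GRCm38.p6) and were found for 64 of the 73 members. They are printed 5′ to 3′ on the coding strand, from 250 bases before the RefSeq start to the GENCODE gene start, which lies 24 (Mrpl27), 132 (Mrps18c) and 66 (Mrps6) bases before the RefSeq start. Mrpl27 and Mrps18c had the lowest log2 differences between 0 and 8 g/kg, and Mrps6 had the highest. Capitals mark matches in either direction, so some appear as the reverse complement. The letters searched for ETS factors were CCGGAAG. The E-box, which MYC can bind, was searched as CACGTG. For RBPJ, the DNA-binding partner of NOTCH1, they were TGGGAA.
Mrpl27, chr11:94653541-94653766, + strand: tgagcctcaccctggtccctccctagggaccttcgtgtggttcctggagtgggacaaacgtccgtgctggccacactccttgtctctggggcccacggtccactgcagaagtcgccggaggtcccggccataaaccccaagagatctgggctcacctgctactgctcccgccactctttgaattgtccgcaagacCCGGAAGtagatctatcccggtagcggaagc
Mrps18c, chr5:100798509-100798626, + strand: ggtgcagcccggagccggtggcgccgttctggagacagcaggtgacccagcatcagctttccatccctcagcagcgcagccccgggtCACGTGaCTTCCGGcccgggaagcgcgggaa
Mrps6, chr16:92058086-92058269, + strand: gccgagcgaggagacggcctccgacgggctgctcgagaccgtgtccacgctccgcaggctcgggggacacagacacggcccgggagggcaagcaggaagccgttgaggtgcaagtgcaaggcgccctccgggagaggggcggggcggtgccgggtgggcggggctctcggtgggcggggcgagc

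Mrpl27 held an ETS match 55 bases before the RefSeq start. Mrps18c held an E-box 163 bases and an ETS match 156 bases before it, side by side in the printed run, and Mrps6 held none. Motif shares were counted over 300 bases, from 250 before to 50 after the RefSeq start, on both strands. That whole window of Mrpl27 also held RBPJ letters 20 bases before the start and YY1 letters 12 bases into the transcript. The NRF1 motif (GCGCA, any base, then GCGC) was in 13 of 64 members, 20.3%, beside 12% of 7579 tested genes with a promoter. The ETS motif was in 22, 34.4% beside 20.9%, and the YY1 motif ATGGCGG in 12, 18.8% beside 9.47%. RBPJ letters were in 19, 29.7% beside 22.6%, and the E-box in 5, 7.81% beside 10.7%. The amino acid response letters TGATGNAA were in none of 64, beside 1.99% of tested genes. A match describes letters in the window, not a bound site.

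Over all 73 members, 17 had all 6 restricted libraries below both 8 g/kg libraries, which is 23.3% beside 11.4% of all tested genes, and 2, Mrps6 and Mrpl24, had all 6 above, which is 2.74% beside 4.73%. Diet means were lower at each step of falling valine for 11 members, 15.1% beside 7.83% of all tested genes, and higher at each step for 3, Mrps6, Mrps15 and Mrps25, 4.11% beside 8.76%. Both 0 g/kg libraries lay below both 8 g/kg libraries for 30 members (22.9% of all tested genes) and above them for 5 (19.1%). At 0.4 g/kg the members numbered 29 below and 9 above (31.8% and 16.9%), and at 0.8 g/kg 23 below and 4 above (22.5% and 10.6%). No test of these shares was made, because the members are not replicates of a diet.

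Of the other members of smallest p, Mrps34 was lower at 0.4 g/kg, with 21.6 and 19.4 FPKM against 27.2 and 28.1 FPKM at 8 g/kg (-0.42 ± 0.11, SE; adjusted p = 0.397, limma). It shares 763 bp of exon with Nme3, so its reads are uncertain. Mrps11 was lower at 0.8 g/kg, with 26.7 and 28.4 FPKM against 32.0 and 35.4 FPKM at 8 g/kg. Mrpl21 differed from 8 g/kg by 0.19 at 0.4 g/kg and Mrps21 by 0.11 at 0.8 g/kg, with unadjusted p of 0.0786 and 0.304 (limma). Among the higher members at 0 g/kg, Mrps25 differed by 0.28, Mrpl49 by 0.16 and Mrps12 by 0.10, with unadjusted p from 0.189 to 0.339 (limma).

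The recovered mouse length was at most the summed exons of the gene in GENCODE vM21 for all 73 members, with a median ratio of 0.78, and since the authors' gene model is not given, the order of levels holds only for the lengths they used. The mean over the 8 libraries was highest for Mrpl52 at 117 FPKM, a large-subunit protein of mitochondria alone, ahead of Mrpl24 at 79.2 FPKM and Mrpl20 at 75.5 FPKM. It was lowest for Mrps33 at 3.05 FPKM, below Mrps10 at 4.08 FPKM and Mrpl48 at 4.76 FPKM. Mrpl52 ranged from 100 FPKM (TALL2 at 0.4 g/kg) to 126 FPKM (TALL2 at 8 g/kg), above every library of the other members, whereas Mrpl24 and Mrpl20 overlapped. The median member stood at 23.1 FPKM beside 14.8 FPKM for all tested genes, with 22 FPKM over the large subunit and 23.6 FPKM over the small subunit. Proteins present together in the ribosome had messages that spanned 3.05 to 117 FPKM.

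Markers of other cells differed between the diets in these sorted libraries. The summed level of the 11 neutrophil markers listed (of 12) was 535 and 322 FPKM at 0 g/kg, 12.2 and 73.4 FPKM at 0.4 g/kg, 13.1 and 12 FPKM at 0.8 g/kg and 0.949 and 10.3 FPKM at 8 g/kg. That of the 9 erythroid markers listed (of 13) was 64.1 and 57.7 FPKM at 0 g/kg, 118 and 108 FPKM at 0.4 g/kg, 101 and 74.4 FPKM at 0.8 g/kg and 181 and 308 FPKM at 8 g/kg. The 2 B-cell markers listed (of 7) summed to 30.3 and 40.01 FPKM at 0 g/kg, 5.87 and 8.02 FPKM at 0.4 g/kg, 10.1 and 3.6 FPKM at 0.8 g/kg and 12.8 and 6.61 FPKM at 8 g/kg. Neutrophil and B-cell sums were thus highest in both 0 g/kg libraries, and erythroid sums were highest in both 8 g/kg libraries. Macrophage markers, 4 listed of 9, summed to 5.08 to 15.7 FPKM over the libraries. No listed marker was at 0 in every library. The part of these cells in the member differences was not tested. Asns, the asparagine synthetase gene that amino acid shortage induces, had 69.2 and 84.6 FPKM at 0 g/kg, 47.3 and 17.1 FPKM at 0.4 g/kg, 5.58 and 47.5 FPKM at 0.8 g/kg and 2.02 and 2.90 FPKM at 8 g/kg. The TALL2 and TALL3 libraries at 0.8 g/kg thus differed from each other in this gene.

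No gene of the related lists was called at 0 g/kg either (limma). Nuclear complex I subunits had the lowest median, -0.18 over 36, with 33 below 0 and 6 lower at an unadjusted p under 0.05, Ndufb3 (-0.47) and Ndufs3 (-0.36) having the smallest p. Mitochondrial ribosome assembly factors had a median of -0.08 over 23, translation factors 0.02 over 15, the subunits with other symbols 0.07 over 6, and cytosolic ribosomal proteins -0.01 over 69. At 0.4 g/kg the cytosolic ribosomal proteins had a median of -0.17.

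Both systems tested 52 members. Below 0 in both, with gSI and at 0 g/kg, were 32 of them, 61.5% beside 30% of the 4952 symbols shared over all genes. A further 3 were above 0 in both, 11 were below with gSI and above at 0 g/kg, and 6 were the reverse. Of the 22 members that fell with gSI, 19 were below 0 at 0 g/kg, and 3 of them had an unadjusted p under 0.05 there (limma). Over all 73 mouse members, 53 were below 0 at 0 g/kg, and 8 were lower at that p. Members were mostly below 0 in each system alone, 81.1% of 53 with gSI and 72.6% of 73 at 0 g/kg. Over all tested genes the shares were 54.9% and 52.2%. These counts therefore do not show agreement between the systems gene by gene. Across the 52 members, which are not independent replicates, Pearson's r between the 2 fold changes was 0.14, and over all shared symbols it was -0.03. MRPS15, with the largest fall under gSI, had in mouse 65.5 and 58.2 FPKM at 0 g/kg against 58.0 and 58.3 FPKM at 8 g/kg. Mrpl27, the lowest of the mouse members at 0 g/kg, had in KOPTK1 1.40 and 1.83 FPKM with gSI against 2.10 and 1.90 FPKM with DMSO (-0.20; adjusted p = 0.023, limma), a call lost in 7 of the alternative settings.

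**Figure D5:**
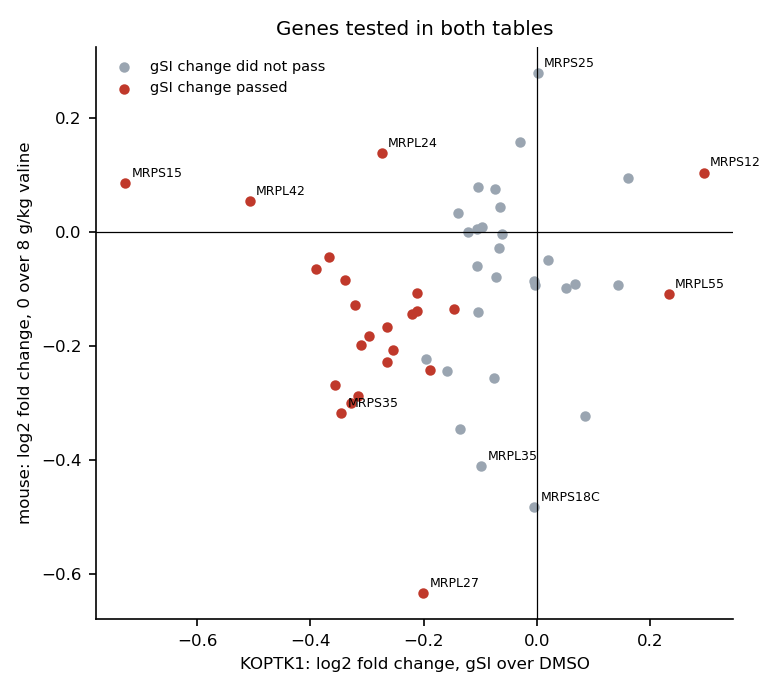
Log2 fold change at 0 over 8 g/kg valine in mouse against that of gSI over DMSO in KOPTK1 for the 52 members tested in both tables, coloured by whether the gSI change passed the test. Of the 52 points, 32 lie below 0 on both axes, and MRPS15 and MRPL27 mark the low ends of the horizontal and vertical axes.

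Valine demand of the proteins themselves was read from coding sequences of the GENCODE vM21 annotation. Valine codons made up a median of 6.77% of the codons of 73 members, beside 6.08% of 9661 tested genes, 6.99% of 36 complex I subunits and 7.02% of 69 cytosolic ribosomal proteins. Members ranged from 2.83% in Mrps33 to 12.5%. Mrpl27 had 14 valine codons of 148, 9.46%, and Mrps6 had 9 of 125, 7.2%. Across members the valine share and the change at 0 g/kg had a Pearson r of -0.03, and across all tested genes it was -0.003.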

How the data were processed

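RNA was measured in 12 libraries, purified on RNeasy columns and made with a strand-specific kit, per the labels' protocols. STAR and edgeR, and the builds hg19 and mm10, stand in the submitters' processing notes without versions or roles. The sources used here do not give how reads were counted or over which gene model. The authors deposited FPKM per gene for 11513 human genes and for 10430 mouse genes, and each table was fitted on its own. Genes averaging 1 FPKM or more were fitted on log2(FPKM + 1) with limma 3.58.1 (R 4.3.3) with a variance trend, with Benjamini-Hochberg adjustment over all of them and a threshold of 0.05. The 8 mouse libraries shared 1 fit, and a slope used diet ranks. Read numbers were recovered from whole-number ratios between FPKM values (the implied gene length was whole, within 0.01 bp, for 95.8% of genes in human and 99.9% in mouse) and served for depth and for voom as an alternative. Replicate libraries were compared by a chi-square test of these reads: they differed by more than counting error in every group, with a chi-square of 5.73 to 93.4 per degree of freedom. Alternatives covered the pseudocount, filter, scaling, trend, replicate block, libraries in the fit and leaving out each library. Genes were named by rule: the 6 largest falls and all rises with gSI past the threshold, the smallest p per direction by diet (5 at 0 g/kg, 3 otherwise), 10 fixed symbols and their counterparts in the other species, and up to 2 per direction of other lists. The members and lists were chosen with earlier results of these data known. Motif and codon counts used Python 3.11.15.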

Additional observations from a re-analysis of the deposited data

How the results depend on the processing

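Of the medians and counts recomputed under each alternative, 179 stayed within the spread between libraries or within 1.5 times the count, and 21 moved further. The 179 include every count of mouse members called. Those counts were 0 under every setting, so they say little about how far the results depend on the processing. For gSI against DMSO the median member change was -0.153 with a pseudocount of 0.1, -0.0721 with a pseudocount of 5, -0.0812 under median-of-ratios scaling, -0.0684 under quantile scaling and -0.158 with voom on recovered reads. A minimum mean of 5 FPKM left 13 members, of which 4 were called, 4 lower and 0 higher. Of all 2051 genes tested at that minimum, 1139 were called, 724 lower and 415 higher. The members' share called lower was thus not above that of all genes there. Quantile scaling called 5 members higher, beside 1981 of 6679 genes. Leaving out 1 library at a time gave 15 to 25 members called, 14 to 21 lower and 1 to 4 higher, with medians of -0.163 to -0.109. Over all genes, lower and higher calls were 2023 and 1524, but 1928 and 1945 under median-of-ratios scaling, 1852 and 1981 under quantile scaling, and 2226 genes were called without gSI replicate 2, 5374 with no filter and 1139 with the minimum of 5 FPKM. In mouse, the 0.4 against 8 g/kg median was 6.83e-05 under median-of-ratios and -0.0134 under quantile scaling; the cause was not tested. With 1 library left out, medians ran from -0.127 to -0.0438 at 0 g/kg, from -0.0833 to -0.0296 at 0.4 g/kg, from -0.163 to 0.0201 at 0.8 g/kg and from -0.0325 to -0.0138 for the slope, and 0 members were called. Over all mouse genes, the slope then called 1 gene without TALL2 at 0.4 g/kg and 2 genes without TALL3 at 0.8 g/kg. The labels do not say whether same-numbered libraries are paired. Over all tested genes, their deviations correlated at 0.258 between gSI and DMSO. Between diets the values were 0.743, 0.566, 0.425 and 0.363 in 4 of the 6 pairs and 0.0588 and -0.174 in the others. Over the members alone, the correlation was 0.145 between gSI and DMSO. For the diet pairs in the same order it was 0.333, 0.132, 0.0617 and 0.113, then -0.00621 and 0.21. With the replicate block, 26 human members were called, MRPS34 added, beside 3705 of 6679 genes, and 0 mouse members. Low FPKM and 2 libraries per group limit which differences could be detected.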
